A study of Mus musculus with 4 samples.

Results

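The genes described are the Cdk inhibitors of the Cip/Kip and Ink4 families together with the tumour suppressor gene Trp53, its antagonist Mdm2 and the p53 target gene Ccng1. They were chosen by symbol, 10 genes in all, and 9 of them had a probe in the platform's annotation, each with 1 probe, out of 19505 named genes. Trp53 had no probe under its symbol and was not analysed here. The values come from Clariom S Mouse arrays, on which many short oligonucleotides are summarized to 1 value per transcript, here called a probe.

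The TTg-MI group held 2 hearts of genotype Tcf21iCre/Tomato/MGTH2A and the Ctrl-MI group 2 hearts of genotype Tcf21iCre/Tomato. Both groups thus carried a Tomato reporter and a Cre recombinase tied to Tcf21, a gene whose product acts in the fibroblasts of the heart. MGTH2A is known as a single construct for the cardiac factors Mef2c, Gata4, Tbx5 and Hand2, and the study asked whether such reprogramming helps the chronically infarcted heart. All mice were male, had their left coronary artery tied off at 8 weeks of age, and gave their whole hearts 3 months after the infarction. Animals whose ejection fraction had stayed high soon after surgery had been left out by the submitters. RNA of a whole heart mixes muscle, fibroblasts, vessels and blood cells, so that fewer cells of a type and less RNA per cell cannot be told apart.

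Cdk inhibitors are the brakes of the cell cycle. The Cip/Kip proteins p21 (Cdkn1a), p27 (Cdkn1b) and p57 (Cdkn1c) bind complexes of cyclins with Cdks, while the Ink4 proteins p16 (from Cdkn2a), p15 (Cdkn2b), p18 (Cdkn2c) and p19 (Cdkn2d) bind Cdk4 and Cdk6 and so keep the retinoblastoma protein active. The transcription factor p53 answers DNA damage and other stress by switching on Cdkn1a, Mdm2 and Ccng1, and Mdm2 in turn marks p53 for destruction. Adult heart muscle cells have largely left the cell cycle, whereas fibroblasts and immune cells of an infarct can divide, and p21 and p16 are widely used as marks of senescent cells.

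The sequences around the transcription starts of the p53 target genes are shown because these genes share a regulator. They were taken from RefSeq (GRCm38.p6), run 5′ to 3′ on the gene's own strand, and cover 250 bases before to 50 after each annotated start. Cdkn1a has 2 such starts, an upstream one at chr17:29090729-29091028 and a downstream one at chr17:29093519-29093818, both on the plus strand. The window of Mdm2 is chr10:117710709-117711008 and that of Ccng1 is chr11:40755237-40755536, both on the minus strand. Capitals mark the 10-base p53 half-site, here called a decamer, and the GC box GGGCGG, each searched on both strands.
Cdkn1a, upstream start: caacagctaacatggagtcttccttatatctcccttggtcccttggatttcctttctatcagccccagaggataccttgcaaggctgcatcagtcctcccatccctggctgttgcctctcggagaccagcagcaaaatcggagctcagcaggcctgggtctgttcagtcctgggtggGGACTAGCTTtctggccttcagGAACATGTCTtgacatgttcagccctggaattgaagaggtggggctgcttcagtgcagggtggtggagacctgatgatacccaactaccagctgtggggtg
Cdkn1a, downstream start: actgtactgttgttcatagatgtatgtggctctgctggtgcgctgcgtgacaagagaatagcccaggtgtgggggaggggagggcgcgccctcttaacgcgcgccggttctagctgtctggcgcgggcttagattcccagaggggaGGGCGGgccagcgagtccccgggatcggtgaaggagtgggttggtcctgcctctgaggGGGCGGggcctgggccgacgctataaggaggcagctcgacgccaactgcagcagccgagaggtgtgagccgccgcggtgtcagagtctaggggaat
Mdm2: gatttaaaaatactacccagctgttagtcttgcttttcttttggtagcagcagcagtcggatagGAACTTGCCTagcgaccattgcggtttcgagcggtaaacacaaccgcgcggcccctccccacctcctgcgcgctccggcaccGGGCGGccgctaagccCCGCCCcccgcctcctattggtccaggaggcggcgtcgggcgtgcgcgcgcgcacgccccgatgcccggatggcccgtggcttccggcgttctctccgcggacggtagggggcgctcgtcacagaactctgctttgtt
Ccng1: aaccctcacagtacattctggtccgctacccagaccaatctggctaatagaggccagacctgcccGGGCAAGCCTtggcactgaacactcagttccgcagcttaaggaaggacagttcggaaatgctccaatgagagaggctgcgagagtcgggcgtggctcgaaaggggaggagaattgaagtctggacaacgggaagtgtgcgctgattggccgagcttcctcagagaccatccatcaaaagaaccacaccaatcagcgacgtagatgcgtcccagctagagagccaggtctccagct

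The upstream window of Cdkn1a held 2 decamers, beginning at bases -73 and -51 with the start counted as 0, and no GC box. The downstream window held no decamer and 2 GC boxes, at -104 and -46. Mdm2 and Ccng1 had 1 decamer each, at -186 and -185. Of the 32851 windows in the table, 8.36% held at least 1 decamer and 35.7% held a GC box. Of the 9 listed genes with an entry, Cdkn1a, Cdkn2d, Trp53, Mdm2 and Ccng1 had a decamer in a window, and no window was found for Cdkn1c. GGTGTG, the core that T-box factors bind, was found in the downstream Cdkn1a window at -185 and 14, in a Cdkn2a window at -33 and in the Ccng1 window at -3, and 19.0% of all windows held at least 1. The match at -185 overlaps an E-box match, CANNTG, at -187. A match of the MEF2 site was found in the Cdkn1b window alone among the members, at -237, against 3.19% of all windows. GATAA was found in no member's window, against 25.4% of all windows.

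The deposited values are log2 expression values, and array medians lay between 6.55 and 6.62. Pearson correlations between arrays, taken across probes that are not independent replicates, ran from 0.977 to 0.991. The lowest was that of TTg-MI replicate 2 with Ctrl-MI replicate 1. Ctrl-MI replicate 2 correlated more closely with TTg-MI replicates 1 and 2 (0.991 and 0.989) than with Ctrl-MI replicate 1 (0.987). Heart muscle was present on every array, with all 6 cardiomyocyte markers far above the lower quartile, but Ctrl-MI replicate 2 stood far below the other Ctrl-MI array for 3 of 4 atrial markers: Myl7 at 5.61 against 10.44, Myl4 at 7.70 against 15.99 and Sln at 7.90 against 14.07. The fourth, Nppa, at 19.90 against 19.92, lay at or near the highest value of these arrays (19.93 and 19.92), so that a difference there may be hidden. Of all 22206 probes, 0.0045% passed limma at an adjusted p under 0.05 and none of the 9 members did. An unadjusted p under 0.05 was reached in the lower direction by 1 member, Cdkn1a, where 5.07% of all probes did so, and in the higher direction by 0 members, where 3.18% of all probes did so. Without moderation of the variance Cdkn1a missed it and Cdkn1b, higher in TTg-MI, reached it, in a fit where 2.78% of all probes did so lower and 2.81% higher. The groups did not overlap for 3 members: the TTg-MI hearts were both higher for 2, Cdkn1b and Cdkn1c, against 19.4% of all probes, and both lower for 1, Cdkn1a, against 18.7%. These shares are near those of the whole table. The median log2 difference of the members, TTg-MI minus Ctrl-MI, was 0.03, and that of all named genes was 0.01.

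Cdkn1a, which encodes p21, the Cdk inhibitor most directly under p53, stood apart from the other members. It measured 11.00 and 9.26 log2 units in the TTg-MI hearts, against 12.81 and 12.64 in the Ctrl-MI hearts. The Ctrl-MI hearts were close together, both TTg-MI hearts lay below them by at least 1.64 log2 units, and TTg-MI replicate 2 was much the lower of its pair. The means were 10.13 ± 1.23 in TTg-MI and 12.72 ± 0.12 in Ctrl-MI (SD, n = 2 each). Their log2 difference was -2.59 (SE 0.54, 95% interval -3.95 to -1.24), which is 6.03-fold lower in TTg-MI. Among the 19505 named genes it had the 14th lowest difference and the 128th smallest p. The limma p was 0.0038 before adjustment, and the adjusted p over all probes was 0.546. Without limma's moderation of the variance, the unadjusted p was 0.0971. An exact two-sided permutation test of 2 arrays against 2 cannot give a p below 0.333. Leaving out TTg-MI replicate 2 gave a difference of -1.72 (3.30-fold lower) and leaving out TTg-MI replicate 1 gave -3.46 (11.0-fold lower). Dropping a Ctrl-MI heart changed it less, to -2.51 for replicate 1 and -2.67 for replicate 2. Across the alternatives the adjusted p ran from 0.0877 to 0.935.

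**Figure D1:**
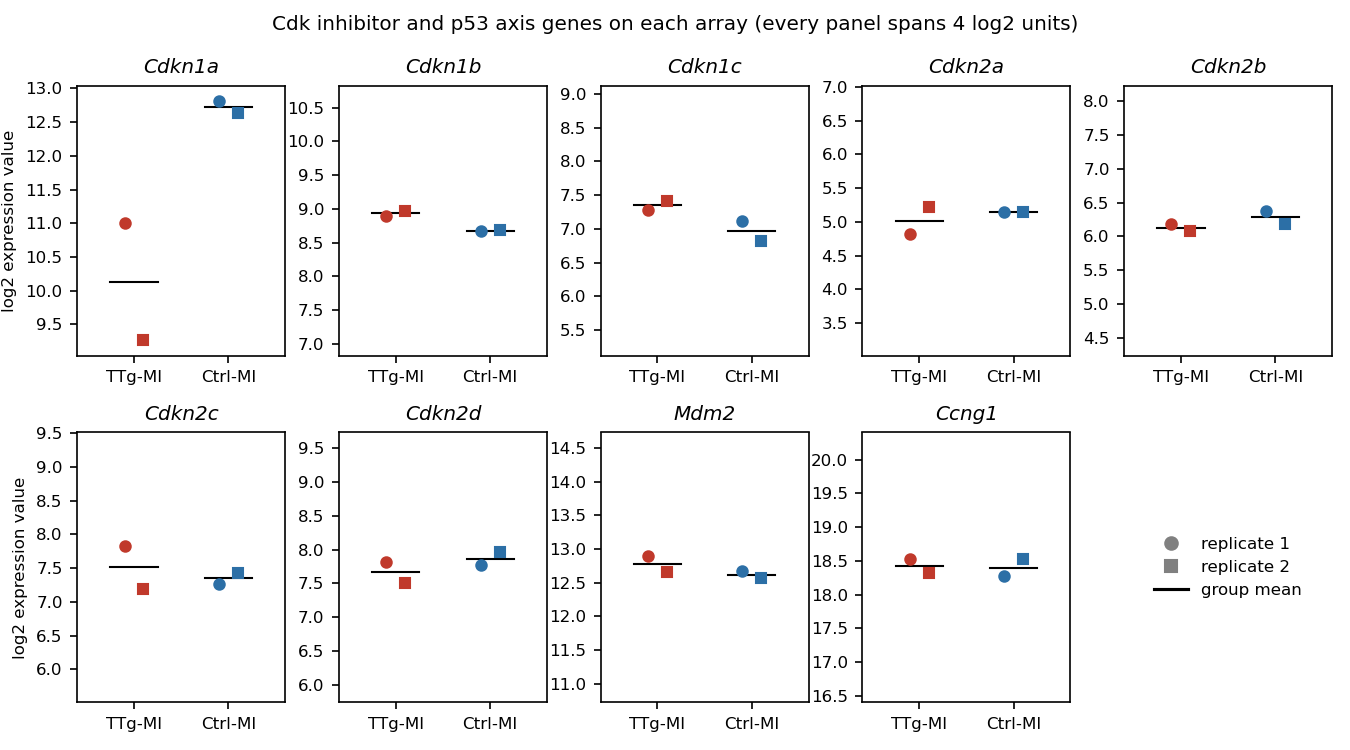
Log2 expression value of each of the 9 measured genes on the 4 arrays, TTg-MI in red and Ctrl-MI in blue; circles are replicate 1, squares replicate 2 and bars the mean of the group. Every panel spans 4 log2 units; the Cdkn1a points of TTg-MI, at 11.00 and 9.26, lie below those of Ctrl-MI at 12.81 and 12.64, whereas the other genes differed little on this scale.

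The other Cip/Kip genes lay the other way, by small amounts. Cdkn1b, whose protein p27 holds resting cells out of the cycle, measured 8.89 and 8.97 in TTg-MI hearts, against 8.67 and 8.68 in Ctrl-MI hearts. The TTg-MI hearts were both the higher ones, with little spread inside either group. The log2 difference was 0.26 (SE 0.15, 95% interval -0.11 to 0.63), with a limma adjusted p of 0.722. Without limma's moderation of the variance, the unadjusted p of Cdkn1b was 0.0274 and the adjusted p 0.857. Cdkn1c, an imprinted gene whose protein p57 acts mainly during development, measured 7.28 and 7.42 in TTg-MI hearts, against 7.12 and 6.81 in Ctrl-MI hearts. These groups did not overlap either, although the Ctrl-MI arrays were farther apart than the TTg-MI arrays. The difference was 0.38 (SE 0.18, 95% interval -0.06 to 0.82), a 1.30-fold higher mean, with a limma adjusted p of 0.645. Leaving out Ctrl-MI replicate 1 raised it to 0.53, where the unadjusted limma p was 0.0383 and the adjusted p 0.783, with 1 Ctrl-MI array assumed to vary like the TTg-MI pair, and leaving out Ctrl-MI replicate 2 lowered it to 0.23. Their 95% intervals and that of Cdkn1a did not overlap, although the difference between genes was not tested.

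The Ink4 genes had means within 0.20 log2 units of each other between the groups, and the arrays of the groups overlapped for each of the 4. Cdkn2a measured 4.81 and 5.21 in TTg-MI hearts, against 5.15 and 5.15 in Ctrl-MI hearts. All 4 values lay under the lower quartile of their array (5.41 to 5.48), so that this probe was not shown to be above background, and no difference is read from it. The locus also encodes p19Arf, which stabilizes p53, and the annotation of the probe lists transcripts of both products. Its neighbour Cdkn2b, a gene induced by TGF-beta in many cell types, measured 6.18 and 6.08 in TTg-MI hearts, against 6.38 and 6.18 in Ctrl-MI hearts. The TTg-MI array that was higher and the Ctrl-MI array that was lower were nearly level. The difference was -0.15 (SE 0.16, 95% interval -0.55 to 0.25).

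Cdkn2c measured 7.82 and 7.20 in TTg-MI hearts, against 7.26 and 7.43 in Ctrl-MI hearts. The TTg-MI hearts bracketed the Ctrl-MI hearts, and the gap of 0.63 between the TTg-MI arrays was the largest within a group after that of Cdkn1a. The difference was 0.16 (SE 0.24, 95% interval -0.44 to 0.77) and turned to -0.15 without TTg-MI replicate 1. Cdkn2d, the Ink4 gene with a p53 decamer in its window, measured 7.82 and 7.51 in TTg-MI hearts, against 7.77 and 7.96 in Ctrl-MI hearts. TTg-MI replicate 2 was the lowest of the 4 arrays and the groups overlapped. The difference was -0.20 (SE 0.18, 95% interval -0.66 to 0.26). The limma adjusted p of Cdkn2b, Cdkn2c and Cdkn2d were 0.872, 0.917 and 0.842.

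Of the p53 feedback genes, neither was set apart between the groups in the way that Cdkn1a was. Mdm2, which encodes the ubiquitin ligase that limits p53, measured 12.89 and 12.67 in TTg-MI hearts, against 12.68 and 12.56 in Ctrl-MI hearts. TTg-MI replicate 2 lay just under Ctrl-MI replicate 1, and the other TTg-MI heart was the highest. The difference was 0.16 (SE 0.16, 95% interval -0.26 to 0.57), with a limma adjusted p of 0.870. Ccng1, which encodes cyclin G1, a p53 target that feeds back on Mdm2, measured 18.53 and 18.32 in TTg-MI hearts, against 18.27 and 18.52 in Ctrl-MI hearts. The groups covered nearly the same range, and the difference was 0.03 (SE 0.18, 95% interval -0.41 to 0.47), with a limma adjusted p of 0.985. It turned to -0.09 without Ctrl-MI replicate 1 and to -0.08 without TTg-MI replicate 1. For all 8 members other than Cdkn1a the 95% interval spanned 0. The intervals reached from -0.66 to 0.82, so that for single genes differences of up to 1.58-fold lower or 1.77-fold higher lie within them.

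**Figure D2:**
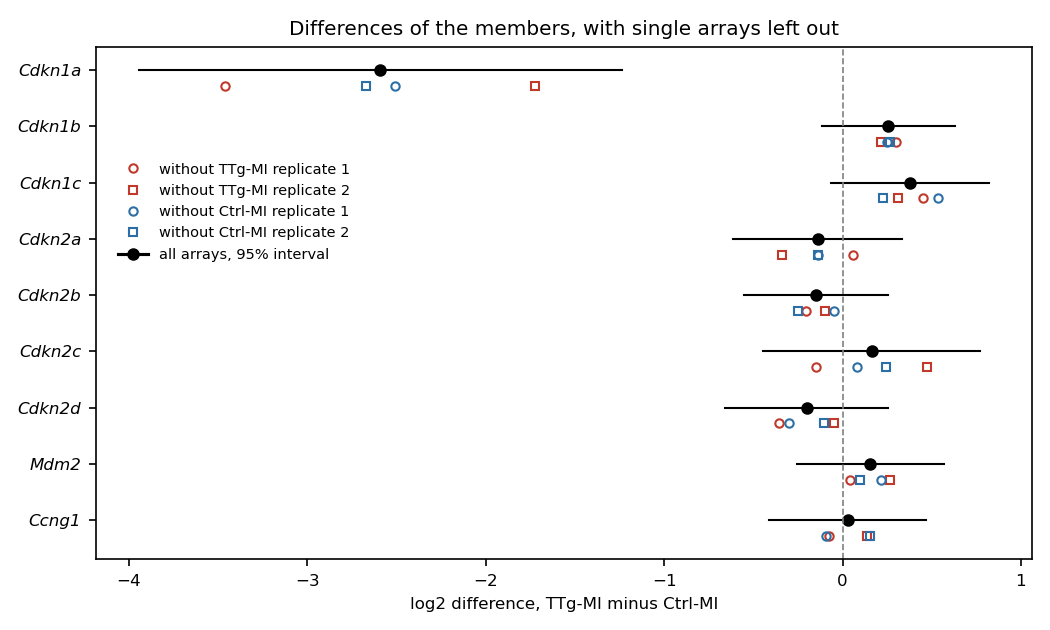
Log2 difference, TTg-MI minus Ctrl-MI, of each measured gene (black points) with its 95% interval from limma (black lines); open symbols below give the difference with 1 array left out, red for a TTg-MI and blue for a Ctrl-MI array. The interval of Cdkn1a, -3.95 to -1.24, is the only one of the 9 that does not reach 0, and its open symbols run from -3.46 to -1.72.

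Genes that act on p53 or are switched on by it were read as 2 further lists. Of 15 measured p53 regulators, 2 were higher and 1 lower at an unadjusted p under 0.05 (3.18% and 5.07% of all probes), with a median log2 difference of 0.06, and none passed over all probes. Atm, the kinase that signals DNA breaks to p53, measured 6.22 and 6.42 in TTg-MI hearts, against 5.62 and 5.78 in Ctrl-MI hearts (log2 difference 0.62, SE 0.17, limma adjusted p = 0.546). Usp7, a deubiquitinase that steadies both Mdm2 and p53, measured 10.22 and 10.25 in TTg-MI hearts, against 10.75 and 10.74 in Ctrl-MI hearts (log2 difference -0.51, SE 0.15, limma adjusted p = 0.546). The hearts of a group were close together for both genes and the groups did not overlap.

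Of 22 measured p53 target genes, 16 had a lower and 6 a higher mean in TTg-MI, and their median was -0.16 beside 0.01 for all named genes. The TTg-MI hearts were both below the Ctrl-MI hearts for 7 of the 22 and both above them for 0, beside 18.7% and 19.4% of all probes. The p53 regulators had 3 of 15 below and 5 above in this way. Of the lists described below, Cdks, cyclins and pocket proteins had 6 of 15 below and 2 above, and proliferation markers 4 of 8 and 0. Senescence-linked genes had 3 of 5 below and 1 above, and upstream regulators 2 of 14 and 5. These counts include Il6 and Bub1 (below) and Cdk1 (above), which lay under the lower quartile on every array and were not shown to be above background. At an unadjusted p under 0.05, 1 of the p53 target genes was lower, beside 5.07% of all probes, and none passed over all probes. The count moved when single arrays were dropped, but those fits left 1 array in a group and their counts are not read as results. With all arrays the gene was Btg2, an antiproliferative early-response gene, at 8.30 and 8.18 in TTg-MI hearts, against 11.01 and 9.06 in Ctrl-MI hearts (log2 difference -1.80, SE 0.60, limma adjusted p = 0.572). Ctrl-MI replicate 1 was well above the other 3 hearts, and the difference was -0.82 without it. Without Ctrl-MI replicate 2 it was -2.78, with a limma adjusted p of 0.0243. That fit set the TTg-MI pair against the 1 high Ctrl-MI array, took the spread among arrays from the TTg-MI pair alone, and called 332 probes where the fit of all arrays called 1. Perp, a p53 target of cell junctions and apoptosis, measured 12.42 and 12.48 in TTg-MI hearts, against 12.78 and 12.80 in Ctrl-MI hearts (log2 difference -0.34, SE 0.15, limma adjusted p = 0.622).

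The targets of the inhibitors themselves, Cdks, cyclins and pocket proteins, gave 15 measured genes, of which 10 averaged lower in TTg-MI (list median -0.14). At an unadjusted p under 0.05, 2 were lower, beside 5.07% of all probes. Cdk6, a kinase bound by all Ink4 proteins, measured 8.76 and 8.85 in TTg-MI hearts, against 9.32 and 9.29 in Ctrl-MI hearts (log2 difference -0.50, SE 0.15, limma adjusted p = 0.546). Rbl1, which encodes the pocket protein p107, measured 5.71 and 5.55 in TTg-MI hearts, against 6.11 and 5.97 in Ctrl-MI hearts (log2 difference -0.41, SE 0.16, limma adjusted p = 0.600). Neither gene's groups overlapped, but the count of 2 was 1 with a trended robust prior, where 4.61% of all probes were lower. All 8 proliferation markers were measured and 7 averaged lower in TTg-MI (list median -0.21). None of the 8 had an unadjusted limma p under 0.05. Mki67 measured 6.63 and 6.53 in TTg-MI hearts, against 7.55 and 6.82 in Ctrl-MI hearts (log2 difference -0.61, SE 0.27, and -0.24 without Ctrl-MI replicate 1). Top2a, the topoisomerase of dividing cells, measured 5.81 and 5.65 in TTg-MI hearts, against 6.02 and 6.17 in Ctrl-MI hearts (log2 difference -0.37, SE 0.16).

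Of 14 upstream regulators of Cdk inhibitors, 2 were higher and 1 lower at an unadjusted p under 0.05, beside 3.18% and 5.07% of all probes, with a median of -0.05. Without moderation none of the 14 reached it. Cbx7, a Polycomb protein that represses the Cdkn2a locus, measured 6.90 and 7.46 in TTg-MI hearts, against 6.30 and 6.69 in Ctrl-MI hearts (log2 difference 0.69, SE 0.25, limma adjusted p = 0.588, and 0.41 without TTg-MI replicate 2). Skp2, the ubiquitin ligase subunit that directs p27 to destruction, measured 5.79 and 5.95 in TTg-MI hearts, against 6.58 and 6.18 in Ctrl-MI hearts (log2 difference -0.51, SE 0.20, limma adjusted p = 0.590, and -0.31 without Ctrl-MI replicate 1). Both genes had groups without overlap, though TTg-MI replicate 1 lay only a little above the nearer Ctrl-MI array for Cbx7. Of the senescence-linked list, 5 of 8 genes were measured and 4 had a lower TTg-MI mean, 2 of them at an unadjusted p under 0.05, beside 5.07% of all probes. Mmp3, a matrix protease secreted by senescent and activated fibroblasts, measured 5.96 and 5.60 in TTg-MI hearts, against 8.05 and 7.33 in Ctrl-MI hearts (log2 difference -1.90, SE 0.28, limma adjusted p = 0.530). Its limma adjusted p was 0.0309 without Ctrl-MI replicate 2, in the same fit of 1 Ctrl-MI array that called 332 probes. Igfbp7, a secreted protein of vessels and fibroblasts, measured 15.28 and 14.49 in TTg-MI hearts, against 16.97 and 16.06 in Ctrl-MI hearts (log2 difference -1.63, SE 0.39, limma adjusted p = 0.546). Both groups kept clear of each other for these genes, and Ctrl-MI replicate 1 was the highest heart.

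**Figure D3:**
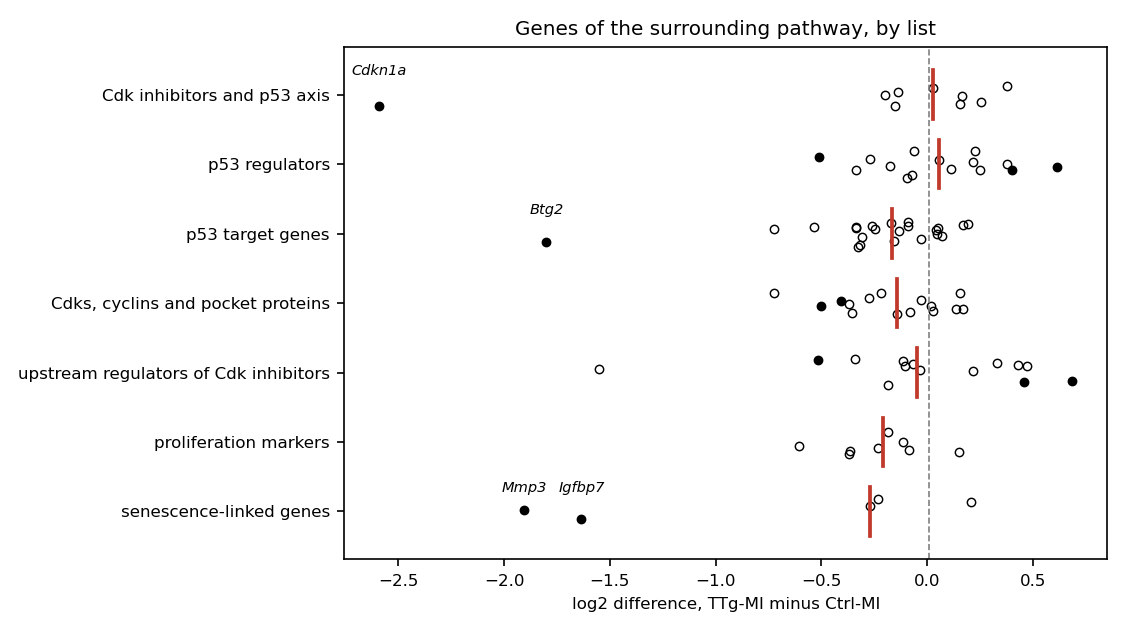
Log2 difference, TTg-MI minus Ctrl-MI, of each measured gene in the 9 members and the 6 surrounding lists; filled points have an unadjusted limma p under 0.05, red bars are list medians and the dashed line is the median of all named genes. Cdkn1a at -2.59, Mmp3 at -1.90, Btg2 at -1.80 and Igfbp7 at -1.63 are the filled points farthest from 0, and the list medians lie between -0.27 and 0.06. The vertical scatter within a list carries no meaning.

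Genes whose values followed those of Cdkn1a most closely were sought by the distance between log2 values over the 4 arrays, after each gene's own mean was subtracted. The 4 nearest were Xirp2, an actin-binding protein of muscle attachment sites (distance 0.84), Meox1, a homeobox factor of activated fibroblasts (0.89), Col3a1, the type III collagen gene (1.003), and Loxl1, a collagen and elastin cross-linking enzyme (1.04). Xirp2 measured 12.28 and 11.02 in TTg-MI hearts, against 14.26 and 13.25 in Ctrl-MI hearts. Meox1 measured 7.93 and 6.59 in TTg-MI hearts, against 10.38 and 9.04 in Ctrl-MI hearts. All 4 genes had TTg-MI replicate 2 as the lowest heart and Ctrl-MI replicate 1 as the highest, as Cdkn1a did, but each had a wider gap between the Ctrl-MI hearts, of at least 0.68 against 0.16 for Cdkn1a. Since they were picked for this likeness, their differences are given as a description.

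Markers of fibroblasts and macrophages were lower on the same arrays. All 5 measured fibroblast and all 5 macrophage markers were lower in each TTg-MI heart than in any Ctrl-MI heart, beside 18.7% of all probes. None of these markers lay under the lower quartile on every array. All 4 measured T and B cell markers also had a lower TTg-MI mean, 3 of them without overlap. Of 5 endothelium markers 2 were higher and 1 lower without overlap, and of 6 cardiomyocyte markers 2 were higher. Of all probes 19.4% were higher in this way. Smooth muscle and pericyte markers had 1 of 5 lower and 0 higher without overlap. The summed fibroblast level was 18.48 and 17.89 log2 units in TTg-MI hearts, against 19.27 and 18.62 in Ctrl-MI hearts, and the summed macrophage level was 13.04 and 11.90 in TTg-MI hearts, against 14.94 and 13.63 in Ctrl-MI hearts. The summed cardiomyocyte level ran from 21.99 to 22.02 in TTg-MI hearts, against 21.78 to 21.99 in Ctrl-MI hearts, with several markers near the highest value of their array. Less the summed fibroblast level of the same array, Cdkn1a stood at -7.48 and -8.63 in TTg-MI hearts, against -6.47 and -5.98 in Ctrl-MI hearts. That sum is nearly all Dcn, at 18.46 on TTg-MI replicate 1, whose difference of -0.74 was the smallest of the 5 markers. Less each fibroblast marker singly, Cdkn1a was without overlap for 4 of the 5. It overlapped for Postn, at 0.22 and 1.55 in TTg-MI hearts, against 0.19 and 1.11 in Ctrl-MI hearts. Less Tcf21 the groups were only just apart, at 3.74 and 2.00 in TTg-MI hearts, against 3.85 and 4.34 in Ctrl-MI hearts. The share of other genes without overlap after such subtraction was not taken. Cdkn1a differed more than each of those 4 markers, so its mean had to remain lower in TTg-MI after they were subtracted. Less the summed macrophage level it stood at -2.04 and -2.64 in TTg-MI hearts, against -2.14 and -0.99 in Ctrl-MI hearts, and the groups then overlapped, as they did for 2 of the 5 macrophage markers taken singly. Most of the macrophage sum is Lyz2, at 12.69 on TTg-MI replicate 1, whose difference of -1.98 was the largest of the 5. It was among the 2 that overlapped singly. The part of these cell types in the Cdkn1a result was not tested.

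**Figure D4:**
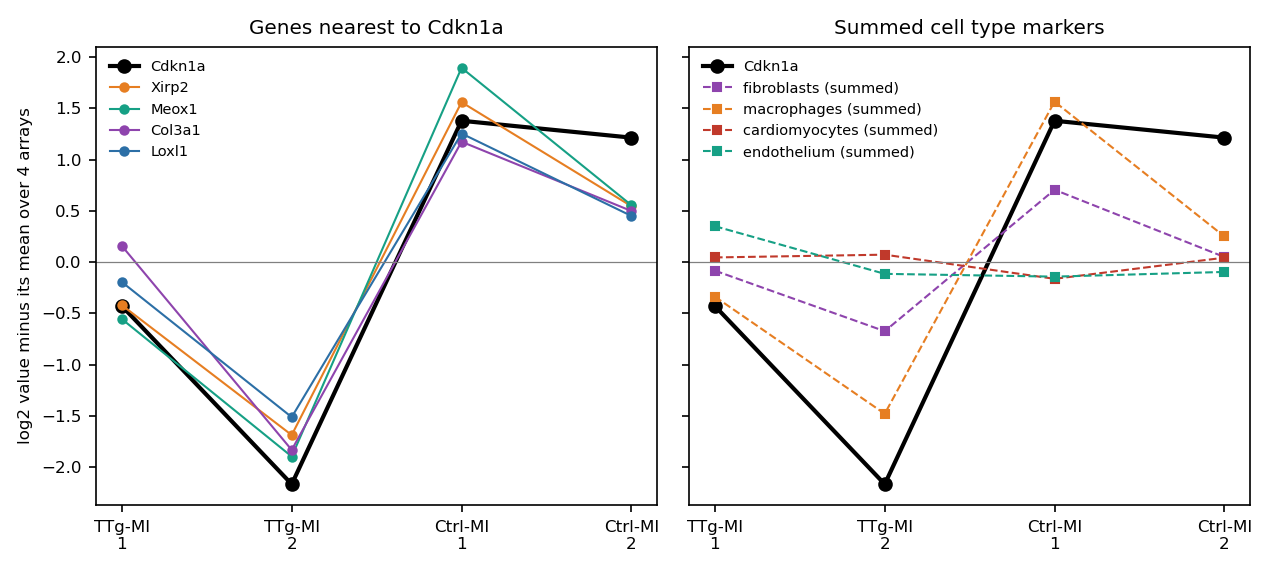
Log2 value minus its mean over the 4 arrays for Cdkn1a (black) beside the 4 nearest genes (left) and beside the log2 summed level of cell type markers (right); lines only join the points of 1 gene or list. Cdkn1a is lowest in TTg-MI replicate 2 and nearly level in the Ctrl-MI hearts, where the nearest genes and the macrophage sum are higher in replicate 1 than in replicate 2.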

How the data were processed

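RNA of 4 whole hearts was hybridised to 4 arrays. The authors deposited 1 log2 value per probe and array, for which the submitters' processing notes name Affymetrix Expression Console 1.4. Summarization, normalization and genome build are details not given in the sources used here; log base 2 was inferred from the range of the values. Probes were named from the platform annotation: 19572 of 22206 had 1 symbol, 0 had several and 2634 were unnamed. For each symbol the probe with the highest mean was used.

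The values were used unaltered. A two-sided limma test (version 3.58.1, R 4.3.3, lmFit and eBayes) was run on the whole table, and p-values were adjusted across it by Benjamini-Hochberg, with calls made under 0.05. The residual 2 degrees of freedom were joined by 3.56 from the shared variance. The number of arrays limits the precision. The design calls the hearts of a group independent biological replicates.

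Besides the members, the 2 genes with the smallest p of each of 6 lists were named (79 of 86 list genes were measured), with the 4 genes nearest to the member with the smallest p. Members and lists were chosen with earlier results of these data known. Alternatives were quantile normalization, median centring, a dim-probe filter, a trended robust prior, no moderation, a replicate block, relaxed or stricter thresholds and leaving out each array. Subtracting marker levels from Cdkn1a, the motif searches and the counts without moderation were chosen after the data were seen. A mean over probes could not differ, as each member had 1 probe.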

Additional observations from a re-analysis of the deposited data

How the results depend on the processing

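None of the 9 members passed the adjusted threshold of 0.05 in any fit listed here, nor at 0.1 with all arrays and no block. The Cdkn1a difference stayed negative throughout, and with the replicate block it was -2.59 at a limma adjusted p of 0.0877. The replicate numbers are not said to pair hearts. The deviations of the replicate 1 arrays correlated at 0.16 between the groups, and the block raised the number of probes called from 1 to 7. With median centring 5 members lacked overlap, Mdm2 (higher) and Cdkn2b (lower) joining the 3 named, by gaps of 0.055 and 0.039 log2 units. With quantile normalization Cdkn2b joined, by a gap of 0.055. The share of all probes without overlap was not taken under these settings, so the counts are not read as results. Among the fits of all arrays, Cdkn1a had an unadjusted p under 0.05 in each but the one without moderation, where Cdkn1b (higher) did. Fits without a TTg-MI array took the spread of Cdkn1a from the Ctrl-MI pair alone, 0.16 apart against 1.74 for the TTg-MI pair. The member counts of fits with 1 array dropped are therefore not read as results. Without TTg-MI replicate 1 the difference of Cdkn2a was 0.0605, the top of its range from -0.34. That of Cdkn2c ran from -0.15 to 0.48 and that of Ccng1 from -0.095 to 0.16, while Cdkn2b ran from -0.25 to -0.049, Cdkn2d from -0.36 to -0.045 and Mdm2 from 0.043 to 0.27. The counts of list genes at an unadjusted p under 0.05 also moved with the settings. The fits with 1 array dropped left 1 array in a group, so their list counts are not read as results. Without moderation, added for these counts after the data were seen, 2 p53 regulators were higher and 2 lower. That fit also had 2 p53 targets lower and 0 upstream regulators. The Cdk list, proliferation markers and senescence-linked genes had 1 each, all lower. Of all probes, 2.81% were higher and 2.78% lower in it. With the trended robust prior 1 p53 regulator was higher, and 1 gene of the Cdk list and 1 proliferation marker were lower. The shares of all probes were 3.4% higher and 4.61% lower. With the dim-probe filter 1 gene of the Cdk list was lower, beside 5.68% of all probes. With the block 1 proliferation marker was lower, beside 6.52% of all probes. The cause of these shifts was not tested. Meox1 passed the adjusted threshold with the block (-2.45, limma adjusted p = 0.0302). Without Ctrl-MI replicate 2, where 1 Ctrl-MI array is assumed to vary like the TTg-MI pair, the whole table had 332 calls.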
